A study of Mus musculus with 4 samples.

Results

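The genes described here encode 2 short peptides, neurotensin (Nts) and endothelin-1 (Edn1), the enzyme and receptors through which they act (Ece1, Ednra, Ednrb, Sort1), and 3 other secreted factors that act on blood vessels (Adm, Vegfa, Agt). They were taken as the rows of the authors' TPM table with those 9 symbols, out of 52192 gene identifiers in the table. Nts and Edn1 were chosen because their TPM were higher in Safb knockdown cells, and the other 7 genes were set beside them for their roles, with the results of this same comparison already known. The levels and changes of the 9 genes are therefore given as a description, with no p-value, and where calls of the fit over all genes are counted for them, nothing is read from the count.

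The cells were AML12, a line of hepatocytes from a mouse transgenic for human transforming growth factor alpha. They received, by lentivirus, a short hairpin RNA that was either a control (shCtrl, 2 libraries) or directed at Safb (shSafb, 2 libraries). The medium was changed 24 h after the virus was added, and cells were harvested 5 days after it was added. Both groups grew in medium with 10% fetal bovine serum, an insulin, transferrin and selenium supplement and 0.1 uM dexamethasone, a synthetic glucocorticoid. The labels do not say whether replicates were separate cultures, so p-values measure the spread between these libraries, which may be technical.

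Nts encodes a precursor that is cut at pairs of basic residues to release neurotensin and neuromedin N, peptides made mainly by gut endocrine cells and neurons. Edn1 encodes a precursor that furin-type convertases cut to big endothelin-1, and endothelin converting enzyme (Ece1) cuts this to endothelin-1, a strong constrictor of vessels best known from endothelium. Endothelin-1 signals through the G protein-coupled receptors encoded by Ednra and Ednrb, while neurotensin signals through Ntsr1 and Ntsr2 and also binds sortilin (Sort1), a sorting receptor of the Golgi and endosomes. In liver, hepatocytes are the main source of angiotensinogen (Agt), endothelin receptors are best known on stellate and sinusoidal cells, and sortilin in hepatocytes is studied for its part in lipoprotein secretion.

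Levels are in TPM, which corrects for gene length and sets every library to the same total. They can therefore be compared between genes, but hold no read counts, and the sequencing depth is unknown. Safb, the targeted gene, was at 23.8 and 23.3 TPM in shCtrl and at 15.8 and 15.0 TPM in shSafb, 1.53-fold lower by the means (limma, Benjamini-Hochberg adjusted p = 0.00411). Of the 8 hepatocyte markers all were detected, with a summed level of 2625 to 3000.3 TPM per library. Most of this sum was Ttr, at 2312 and 2248 TPM in shCtrl and 2177 and 2189 TPM in shSafb. Hnf4a was at 157 to 169 TPM and Serpina1a at 77.4 to 131 TPM, but Apoc3 at only 0.711 to 1.43 TPM and Cps1 at 0.990 to 2.02 TPM. The 5 cholangiocyte markers summed to 1513 to 1675 TPM, and 4 of them were also abundant. By limma, 2 of the 8 hepatocyte markers rose and 2 fell, and of 4 tested cholangiocyte markers 1 rose and 2 fell. Over all 13111 genes tested, 21.9% were higher and 22.4% lower at the same threshold, and nothing is read from these marker counts. Alb was at 378 and 345 TPM in shCtrl and 122 and 127 TPM in shSafb, and Apoa1 at 56.4 TPM in both shCtrl libraries and 28.2 and 28.1 TPM in shSafb. Fgb was at 1.57 and 2.49 TPM in shCtrl and 7.18 and 7.59 TPM in shSafb. Of the cholangiocyte markers, Krt19 was at 319.9 and 320.1 TPM in shCtrl and 676 and 679 TPM in shSafb, and Spp1 at 1108 and 1101 TPM and at 609.7 and 671 TPM. The 9 endothelial markers summed to 0.0349 to 0.513 TPM and the 7 neuroendocrine markers to 0.708 to 2.0 TPM. The 8 stellate or fibroblast markers summed to 1.94 to 2.23 TPM and the 6 macrophage markers to 1.63 to 3.09 TPM. Of the latter, Csf1r was at 0.239 and 0.450 TPM in shCtrl and 1.92 and 1.72 TPM in shSafb. It reached a mean of 1 TPM only through shSafb. Ptprc was at 0.303 and 0.272 TPM in shCtrl and 0.452 TPM in both shSafb libraries. Cd68 was at 0.972 and 1.05 TPM in shCtrl and 0.463 and 0.922 TPM in shSafb. Lyz2 was at 0.115 and 0.520 TPM in shCtrl and 0 in shSafb, and Adgre1 and Clec4f were at 0 throughout. The part of these markers in the results was not tested. In these bulk libraries, fewer cells of a type and less RNA per cell cannot be told apart.

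Nts had the largest fold difference among the 9 genes, by a margin over Edn1 that is within error. It was at 2.06 and 1.19 TPM in shCtrl and at 19.5 and 19.9 TPM in shSafb. Both shSafb libraries were far above both shCtrl libraries, and the shCtrl libraries differed more from each other in proportion than the shSafb libraries did. The mean was 1.62 ± 0.618 TPM in shCtrl and 19.7 ± 0.277 TPM in shSafb (SD, n = 2 each). That is 12.1-fold, with 9.45-fold between the closest pair of libraries of different groups and 16.7-fold between the farthest. On the log2 scale of scaled TPM plus a pseudocount of 1, the difference was 3.02 ± 0.17 (SE), rank 6 from the top among 13111 genes with a mean of at least 1 TPM. Nts (ENSMUSG00000019890) occupies chr10:102481756-102490486, minus strand, in mm10.

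Edn1 was at 2.60 and 1.80 TPM in shCtrl and at 21.4 and 21.3 TPM in shSafb. As with Nts, the shCtrl replicate 1 value was the higher of the control pair and the shSafb values nearly coincided. The mean was 2.20 ± 0.560 TPM in shCtrl and 21.4 ± 0.107 TPM in shSafb (SD, n = 2 each). That is 9.70-fold, with 8.19-fold between the closest and 11.9-fold between the farthest pair. The log2 difference of 2.84 ± 0.13 (SE) had rank 9 from the top. It was below that of Nts by 0.18, against a combined SE of 0.22, so the order of the 2 is within their error. Edn1 (ENSMUSG00000021367) occupies chr13:42301476-42307990, plus strand.

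Genes with a pattern like that of Nts or Edn1 were listed as a description, since both were chosen for their rise. In the distance between log2 profiles centred on the shCtrl mean, Edn1 was the nearest gene to Nts (0.275), and Nts the nearest to Edn1, among 10897 other named protein-coding genes. The next nearest to Nts were Afp, the fetal serum protein alpha-fetoprotein gene (0.374; 2.17 ± 0.122 to 27.3 ± 0.555 TPM), and Klf2, which encodes a Krüppel-like transcription factor (0.476). Klf2 was also the next nearest to Edn1 (0.305; 0.446 ± 0.0671 to 9.20 ± 0.00633 TPM), and it reached a mean of 1 TPM only through shSafb. The distances hold for a pseudocount of 1 only. In TPM, Klf2 differed by 20.6-fold and Edn1 by 9.70-fold. With a pseudocount of 0.1 their log2 changes were 4.12 and 3.27. All these distances are over 4 libraries in 2 groups, so they mainly compare the sizes of the genes' rises on that log2 scale.

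**Figure D1:**
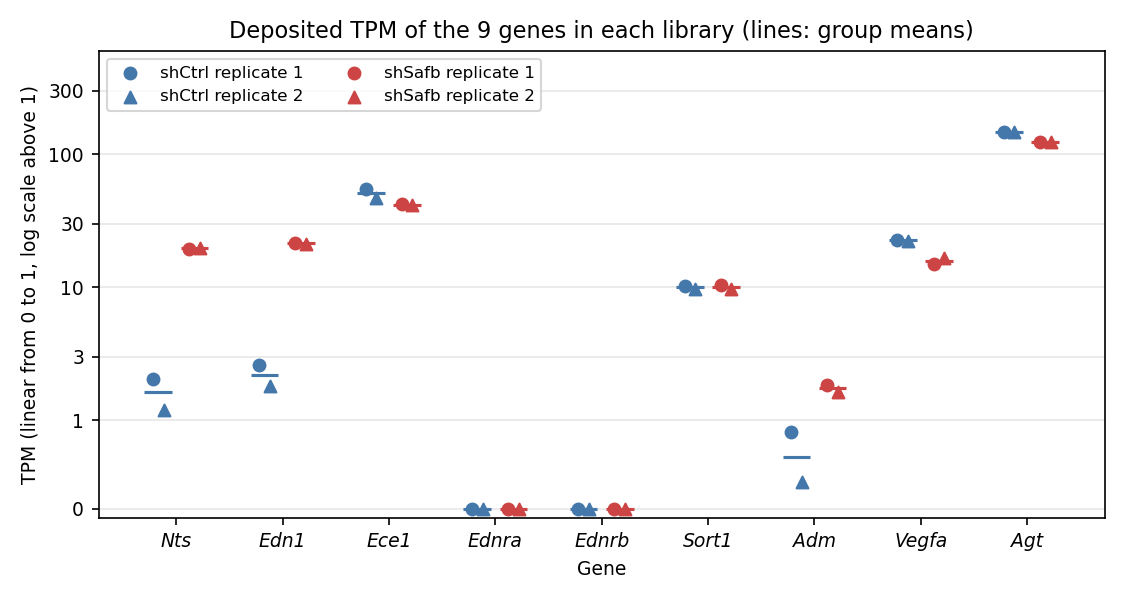
Deposited TPM of the 9 genes in each library (vertical axis linear from 0 to 1 and logarithmic above; circles replicate 1, triangles replicate 2, lines group means). Nts and Edn1 sit near 2 TPM in shCtrl and near 20 TPM in shSafb, while Ece1, Sort1, Vegfa and Agt shift little on this scale and both endothelin receptor genes lie at 0.

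The promoters of Nts and Edn1 are shown because their values differ most in proportion among the 9 genes, which is how they were chosen. Each window is from RefSeq on GRCm38.p6 and runs from 250 bases before to 50 bases after the RefSeq transcription start, 5′ to 3′ on the gene's own strand. The Nts window is chr10:102490369-102490668 on the minus strand, and its start lies 68 bases inside the 5′ end that GENCODE gives the gene. The Edn1 window is chr13:42301226-42301525 on the plus strand, where both annotations give the same start. Capitals mark matches to 5 short motifs, each searched on both strands. The site of AP-1, the dimer of Jun and Fos proteins, was searched as TGANTCA. The cyclic AMP response element, bound by CREB, was searched as TGACGTCA. The site of GATA factors was searched as AGATAA. The core bound by hypoxia-inducible factors was searched as ACGTG, and the TATA box as TATAAA.
Nts: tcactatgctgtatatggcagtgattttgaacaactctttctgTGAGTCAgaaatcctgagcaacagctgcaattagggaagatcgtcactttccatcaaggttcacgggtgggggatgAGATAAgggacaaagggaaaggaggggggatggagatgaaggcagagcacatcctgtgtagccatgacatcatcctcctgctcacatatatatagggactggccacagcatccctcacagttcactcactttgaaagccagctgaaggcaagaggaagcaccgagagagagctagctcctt
Edn1: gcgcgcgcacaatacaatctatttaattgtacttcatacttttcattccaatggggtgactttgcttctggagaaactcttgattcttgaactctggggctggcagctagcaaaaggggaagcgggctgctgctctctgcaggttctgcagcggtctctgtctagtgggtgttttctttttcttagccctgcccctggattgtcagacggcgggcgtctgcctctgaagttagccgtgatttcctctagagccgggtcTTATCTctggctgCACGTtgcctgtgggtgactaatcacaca

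In the Nts window an AP-1 match stood at positions -207 to -201 and a GATA match at -131 to -126, counted from the RefSeq start. In the Edn1 window the GATA match stood at 9 to 14 and the hypoxia core at 22 to 26, both read on the opposite strand. These positions follow the RefSeq start, and whether transcription begins there in these cells was not tested. Neither window held the exact letters TGACGTCA or TATAAA. Near variants of the motifs, such as the tgacatca in the Nts window and the tgactaa in the Edn1 window, were not searched, so such elements may be present. AP-1 letters occur in 7.81% of all 32851 promoter windows of this length, GATA letters in 11.2% and the hypoxia core in 19.6%, so single matches are common. The GATA letters were thus the match that the 2 windows shared. They were also in 1 of 2 Vegfa windows, and in no window of Ece1, Ednra, Ednrb, Adm or Agt. Whether the letters bear on any change was not tested. Of the 8 members with a window in the RefSeq table, Ednra, Ednrb and Adm had no match in theirs, Agt had TATAAA at -30 to -25, and 1 of 4 Ece1 windows and 1 of 2 Vegfa windows held the hypoxia core. A match describes letters in a window and is no evidence of binding.

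**Figure D2:**
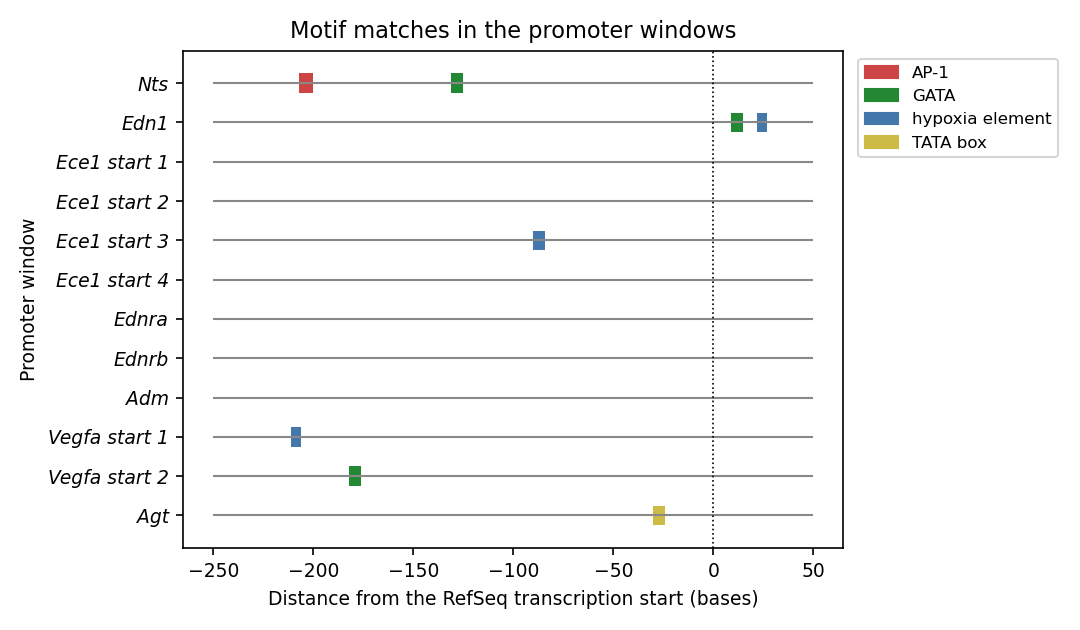
Position of motif matches in the 12 promoter windows of 8 members, as distance in bases from the RefSeq start (dotted line); a gene with several starts has a row for each. Nts carries AP-1 and GATA matches before its RefSeq start, and Edn1 carries GATA and hypoxia core matches just after its RefSeq start.

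Ece1, the enzyme that cuts big endothelin-1 to the active peptide, did not go up with its substrate. It was at 54.4 and 47.2 TPM in shCtrl and at 42.0 and 41.6 TPM in shSafb. The groups did not overlap, but the closest pair differed by only 1.13-fold and the shCtrl libraries lay 5.04 TPM (SD) around their mean of 50.8 TPM. The log2 difference was -0.25 ± 0.07 (SE). In the ratio of TPM within a library, Ece1 exceeded Edn1 by 20.9 and 26.2-fold in shCtrl and by 1.96-fold in each shSafb library, so the converting enzyme remained the more abundant transcript in all 4. The gene (chromosome 4, 137862237 to 137965229) overlaps the antisense gene Gm13012, which was at 0 in every library.

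The receptors did not follow the ligands. Ednra and Ednrb, the endothelin receptor genes, were listed at 0 TPM in each of the 4 libraries, and with no counts no upper limit can be given for them. In the same table, 0 of 11 housekeeping genes and 2 of 76 ribosomal protein genes were at 0 in all 4 libraries. Sort1 was at 10.3 and 9.74 TPM in shCtrl and at 10.4 and 9.78 TPM in shSafb, with overlapping groups and a log2 difference of 0.03 ± 0.08 (SE). Nts thus went from below to above its sorting receptor: the ratio of Nts to Sort1 TPM was 0.199 and 0.122 in shCtrl and 1.86 and 2.03 in shSafb. Ednra lies on chromosome 8 (77663031 to 77724464), Ednrb on chromosome 14 (103814625 to 103844402) and Sort1 on chromosome 3 (108284082 to 108361511).

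The 3 other secreted factors did not share the pattern of Nts and Edn1. Adm, which encodes the vasodilator adrenomedullin, was at 0.865 and 0.302 TPM in shCtrl and at 1.85 and 1.64 TPM in shSafb. It was higher in both shSafb libraries, from a mean of 0.583 ± 0.399 to 1.74 ± 0.151 TPM (SD, n = 2 each), but it stayed under 2 TPM. Its log2 difference of 0.83 ± 0.22 (SE) was 2.19 below that of Nts and 2.01 below that of Edn1. Adm reached a mean of 1 TPM over the libraries only through shSafb, so it entered the comparison because it was higher there. It overlaps the antisense gene Gm28863 (0.265 to 0.524 TPM) on the opposite strand, and whether reads were assigned by strand is not stated in the sources used here, which leaves so low a value uncertain.

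Vegfa, which encodes the endothelial growth factor VEGF-A, was at 22.8 and 22.4 TPM in shCtrl and at 15.0 and 16.5 TPM in shSafb. Both shSafb libraries were lower, by 1.44-fold in the means (22.6 ± 0.284 to 15.7 ± 1.06 TPM; log2 difference -0.48 ± 0.07, SE). Agt, the angiotensinogen gene and the most abundant of the 9, was at 148 and 146 TPM in shCtrl and at 124 and 123 TPM in shSafb. That is a difference of -15.8% in the means (log2 -0.22 ± 0.04, SE), small but wider than the gap within either group. The genes lie on chromosome 17 (Vegfa, 46016993 to 46032369), chromosome 8 (Agt, 124556534 to 124569706) and chromosome 7 (Adm, 110627661 to 110629820).

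Of the 7 members with a mean of at least 1 TPM, 3 were past the threshold and higher (Nts, Edn1, Adm), 3 past it and lower (Ece1, Vegfa, Agt) and 1 was not past it (Sort1), by limma with Benjamini-Hochberg adjusted p under 0.05. Over all 13111 genes tested, 44.3% were past the same threshold, 21.9% higher and 22.4% lower. In 6 of the 7 the groups did not overlap, against 74.7% of all genes tested. The members were chosen from this comparison, so nothing is read from these counts. Without shSafb replicate 1, and also without shSafb replicate 2, 2 members were higher (Nts, Edn1) and 1 lower (Vegfa). Adm was also not past the threshold without shCtrl replicate 2, nor Ece1 without shCtrl replicate 1, nor Agt without shCtrl replicate 2. With all 4 libraries kept, the Adm call was also lost with a pseudocount of 0.1 and with no low-TPM filter. The Ece1 call was lost with no filter, with unscaled TPM, with no intensity trend and with replicate number in the fit. The Agt call was lost with no intensity trend. In 7 of 7 genes shCtrl replicate 1 was above shCtrl replicate 2 in deposited TPM, most in proportion for the 3 lowest genes, and the scaling divided that library by 1.031.

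**Figure D3:**
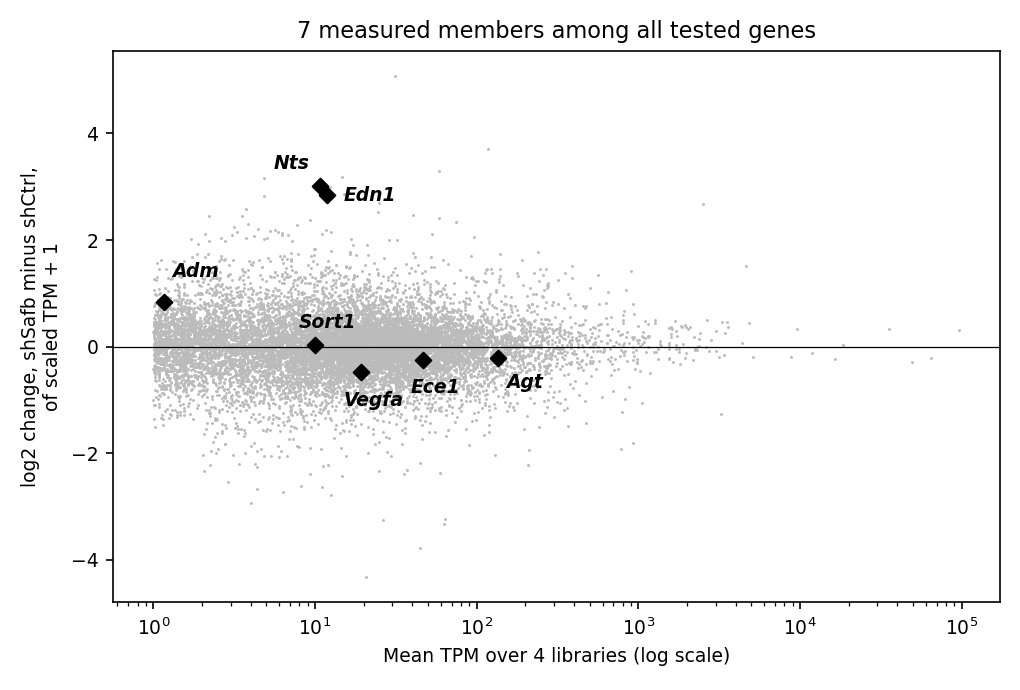
Log2 difference of scaled TPM plus 1, shSafb minus shCtrl, against mean TPM over the 4 libraries (log scale), for the 13111 genes tested (grey) and the 7 members that reached a mean of 1 TPM (black diamonds). Nts and Edn1 lie at 3.02 and 2.84, Adm at 0.83, and the remaining members between -0.48 and 0.03.

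The order of the genes by level changed through Nts and Edn1. In shCtrl the order was Agt, Ece1, Vegfa, Sort1, Edn1, Nts and Adm, and the ranges of Edn1 (1.80 to 2.60 TPM) and Nts (1.19 to 2.06 TPM) overlapped. In shSafb it was Agt, Ece1, Edn1, Nts, Vegfa, Sort1 and Adm, with no overlap between neighbours. Edn1 and Nts had thus moved above Vegfa and Sort1. The ratio of Nts to Edn1 within a library was 0.794 and 0.658 in shCtrl and 0.909 and 0.934 in shSafb. Agt stayed far above both: it exceeded Edn1 by 56.9 and 80.7-fold in shCtrl and by 5.79 and 5.78-fold in shSafb.

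The other genes of these pathways were taken from 13 lists, which hold 141 matched genes besides the members. Of these, 77 were under 1 TPM in every library, 40 of them at 0, and 63 were tested. By limma, 18 of the 63 rose, 18 fell and 27 did not pass, with a median log2 change of 0.07 beside 0.00 over all genes tested. The share called was 57.1%, beside 44.3% of all genes tested (21.9% higher and 22.4% lower), and the counts for single lists that follow stand against the same background. Among the 63, Calcrl, Flt1, Sstr2 and Klf2 were under a mean of 1 TPM in shCtrl and entered only through shSafb, and Npr2 entered only through shCtrl. The first 4 are counted as higher but had to be higher in shSafb to be tested, so they are described by their values alone.

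In the neurotensin system, the G protein-coupled receptor genes Ntsr1 and Ntsr2 were at 0 in all 4 libraries. Of 5 tested genes besides Nts and Sort1, 1 was higher, 2 lower and 2 not past the threshold (median -0.11). The peptidases that degrade neurotensin did not share a direction. Neurolysin (Nln) fell from 61.9 ± 1.17 to 51.2 ± 0.760 TPM (log2 -0.24 ± 0.06, SE; limma adjusted p = 0.0263) and thimet oligopeptidase (Thop1) from 38.0 ± 1.64 to 30.6 ± 1.15 TPM (limma adjusted p = 0.0197). The Thop1 call was lost without any of the 4 libraries in turn (0.0570 to 0.0960; 0.0157 to 0.0960 over 12 alternatives). The Nln call was lost without shCtrl replicate 2 (0.0827), shSafb replicate 1 (0.0889) or shSafb replicate 2 (0.115; 0.0143 to 0.115 over 12 alternatives). Neprilysin (Mme), which degrades neurotensin and endothelin, rose from 2.07 ± 0.229 to 3.23 ± 0.00363 TPM (limma adjusted p = 0.0384), a call lost without any of the 4 libraries in turn (0.0636 to 0.132; 0.0215 to 0.132 over 12 alternatives). Prolyl endopeptidase (Prep, 9.84 ± 0.116 and 10.6 ± 0.460 TPM in shCtrl and shSafb; limma adjusted p = 0.291) and the sortilin relative Sorl1 (15.8 ± 0.623 and 14.3 ± 0.0146 TPM; limma adjusted p = 0.255) did not pass. The ratio of Nts to Nln was 0.0338 and 0.0189 in shCtrl and 0.376 and 0.392 in shSafb.

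In the endothelin system, 1 of 2 tested genes besides Edn1 and Ece1 was higher (Mme, above) and 1 not past the threshold (median 0.28). Edn3 was at 0 in all libraries and Edn2 at 0 in both shCtrl libraries and at 0.415 and 0.0522 TPM in shSafb. Edn1 was thus the endothelin gene with nearly all of the family's signal. The second converting enzyme gene, Ece2, was at 11.7 ± 0.553 TPM in shCtrl and 12.2 ± 2.30 TPM in shSafb, with overlapping groups (log2 0.07 ± 0.14, SE; limma adjusted p = 0.723). It overlaps the protein-coding gene Gm49333 on the same strand, so its reads could be shared. Kel, a blood-group protein that can process endothelins, was at 0 in 3 libraries and at 0.0267 TPM in shSafb replicate 1.

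Among genes that process peptide precursors, 3 of 6 tested rose, 2 fell and 1 did not pass (median 0.10). The convertase Pcsk6 rose from 13.4 ± 0.107 to 30.1 ± 2.14 TPM (log2 1.13 ± 0.08, SE; limma adjusted p = 0.00115) and Pcsk7, which overlaps Rnf214 and Tagln on the opposite strand, from 22.7 ± 2.72 to 32.1 ± 2.05 TPM (limma adjusted p = 0.0257). Furin, the convertase best known for cutting the endothelin precursor, was at 82.9 and 66.9 TPM in shCtrl and 65.1 and 62.9 TPM in shSafb (log2 -0.19 ± 0.09, SE; limma adjusted p = 0.166). The neuroendocrine convertase genes Pcsk1 and Pcsk2 were below 1 TPM throughout. Carboxypeptidase E (Cpe), which trims basic residues from cut precursors, fell from 634 ± 8.83 to 305 ± 4.65 TPM (log2 -1.03 ± 0.04, SE; limma adjusted p = 5.65e-04), and carboxypeptidase D (Cpd), of the same activity, rose from 71.0 ± 3.52 to 91.6 ± 1.21 TPM (limma adjusted p = 0.00419). Pam, the enzyme that amidates peptides such as adrenomedullin, fell from 120.4 ± 16.3 to 92.0 ± 1.75 TPM (limma adjusted p = 0.0280). The Pam call was lost without shSafb replicate 1 (0.0851) or 2 (0.105; 0.0148 to 0.105 over 12 alternatives), and the Pcsk7 call without shCtrl replicate 1 (0.0550), shSafb replicate 1 (0.0644) or shSafb replicate 2 (0.0992; 0.0149 to 0.0992).

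**Figure D4:**
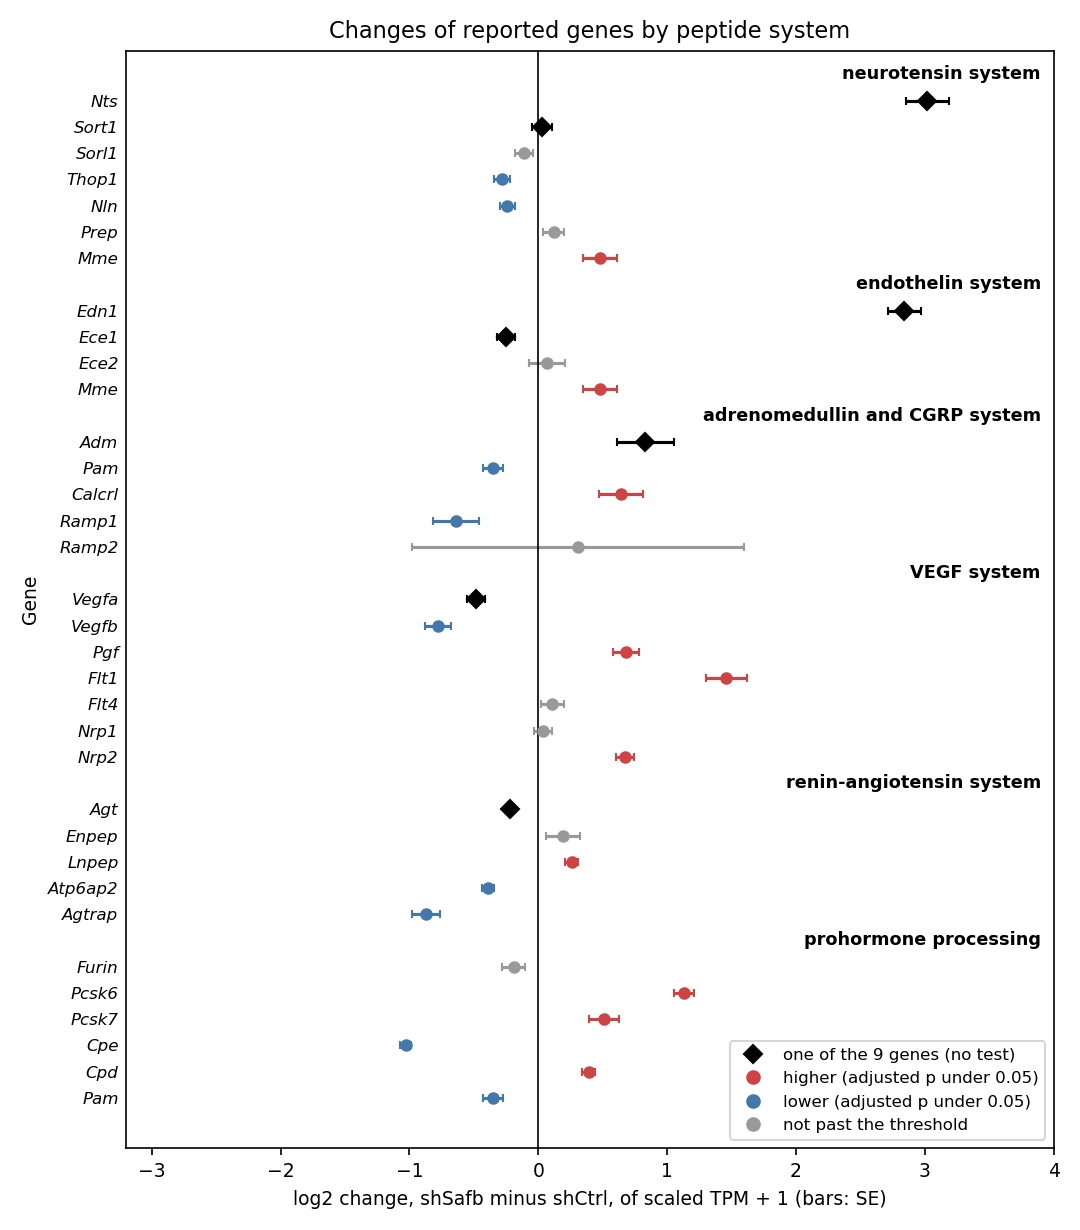
Log2 change of scaled TPM plus 1, shSafb minus shCtrl, with its SE, for the tested genes of 6 lists that are reported here (black diamonds: members, no test; red: higher; blue: lower; grey: not past a limma adjusted p of 0.05). Nts and Edn1 stand to the right of every other gene plotted, and Cpe, at -1.03, has the lowest value.

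In the adrenomedullin system, 1 of 5 tested genes besides Adm was higher, 3 lower and 1 not past the threshold (median -0.35). The gene counted as higher was the receptor gene Calcrl, at 0.589 and 0.887 TPM in shCtrl and 1.58 and 1.78 TPM in shSafb, which was tested only because of its shSafb level. Ramp1, a partner that sets the ligand of that receptor, fell from 5.64 ± 1.36 to 3.17 ± 0.107 TPM (limma adjusted p = 0.0471). The partner Ramp2 split by replicate number rather than by group, at 0 in both libraries numbered 1 and at 4.33 and 7.16 TPM in those numbered 2. The Ramp1 call was lost without shCtrl replicate 2 (0.109), shSafb replicate 1 (0.121) or shSafb replicate 2 (0.137; 0.0234 to 0.137).

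In the VEGF system, 3 of 6 tested genes besides Vegfa rose, 1 fell and 2 did not pass (median 0.39). Vegfb fell with a direction like that of Vegfa, from 11.8 ± 1.48 to 6.28 ± 0.155 TPM (limma adjusted p = 0.00508), while Pgf, the placental growth factor gene, rose from 6.20 ± 0.323 to 10.3 ± 0.420 TPM (limma adjusted p = 0.00677). The receptor gene Flt1, one of the 3, was at 0.121 and 0.229 TPM in shCtrl and at 2.35 and 2.07 TPM in shSafb, and it was tested only because of its shSafb level. The co-receptor Nrp2 rose from 18.8 ± 1.18 to 29.9 ± 1.38 TPM (limma adjusted p = 0.00293), and Kdr, the main VEGF-A receptor of endothelium, was at 0 in all 4 libraries. Edn1 and Flt1 are known from endothelium. Of the 9 endothelial markers, 5 (among them Cdh5, Tie1 and Emcn) were at 0 in every library and none reached 1 TPM, with sums of 0.183 and 0.513 TPM in shCtrl and 0.0349 and 0.286 TPM in shSafb. Their part in the results for Edn1 and Flt1 was not tested. Of the 7 neuroendocrine markers, set beside Nts, 6 stayed under 1 TPM in every library, and their sums were 2.0 and 1.88 TPM in shCtrl and 0.708 and 0.999 TPM in shSafb.

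In the renin-angiotensin system, 1 of 4 tested genes besides Agt was higher, 2 lower and 1 not past the threshold (median -0.10). The renin gene Ren1 and the receptor genes Agtr1b, Agtr2 and Mas1 were listed at 0 in all libraries. Agtr1a, the main angiotensin receptor gene of rodent liver, was at 0.241 and 0.207 TPM in shCtrl and at 0.0461 and 0.0346 TPM in shSafb. The (pro)renin receptor gene Atp6ap2, which also serves the vacuolar proton pump, fell from 121 ± 1.38 to 90.4 ± 2.56 TPM (limma adjusted p = 0.00417), and Agtrap, which binds the type 1 angiotensin receptor, from 6.01 ± 0.0491 to 2.79 ± 0.286 TPM (limma adjusted p = 0.00516). Lnpep, an aminopeptidase that cleaves several vasoactive peptides, rose from 32.4 ± 1.45 to 38.3 ± 0.207 TPM (limma adjusted p = 0.0184), a call lost without any of the 4 libraries in turn (0.0525 to 0.0889; 0.0185 to 0.0889 over 12 alternatives).

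Edn1, Adm and Vegfa are also known as hypoxia-responsive genes, and in these libraries they went different ways. Of the 14 other hypoxia targets tested, 4 rose, 2 fell and 8 did not pass (median 0.10). Slc2a1, the glucose transporter GLUT1 gene, rose from 25.1 ± 1.26 to 47.9 ± 1.43 TPM (limma adjusted p = 9.57e-04), Egln3 from 9.54 ± 0.730 to 20.5 ± 2.83 TPM (limma adjusted p = 0.00339) and Ldha from 309 ± 15.1 to 448 ± 36.0 TPM (limma adjusted p = 0.00425). Egln1, like Egln3 a prolyl hydroxylase gene that marks HIF for decay, fell from 36.6 ± 2.53 to 23.7 ± 0.849 TPM (limma adjusted p = 0.00355). Pfkfb3, a glycolytic regulator gene, fell from 24.5 ± 2.10 to 18.7 ± 0.665 TPM (limma adjusted p = 0.0208) and Kdm3a, a histone demethylase gene, rose from 33.9 ± 6.88 to 45.7 ± 1.94 TPM (limma adjusted p = 0.0439). The Kdm3a call was lost without shCtrl replicate 2 (0.0634), shSafb replicate 1 (0.147) or shSafb replicate 2 (0.0989; 0.0159 to 0.147 over 12 alternatives), and the Pfkfb3 call without shCtrl replicate 1 (0.0743), shSafb replicate 1 (0.0933) or shSafb replicate 2 (0.0637; 0.0175 to 0.0933). Ndrg1, Bnip3 and Pgk1 did not pass (limma adjusted p = 0.219, 0.548 and 0.359).

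A list of 16 transcription factor genes known from other cells to act on the Edn1 or Nts promoter held 15 tested genes, of which 4 rose, 3 fell and 8 did not pass (median 0.11). Among the AP-1 genes, Junb rose from 685 ± 8.17 to 1166 ± 15.5 TPM (limma adjusted p = 8.67e-04) while Jund fell from 284 ± 4.83 to 142 ± 2.98 TPM (limma adjusted p = 6.20e-04) and Fosb from 99.3 ± 1.40 to 65.5 ± 1.63 TPM (limma adjusted p = 0.00184). Jun and Fos did not pass (limma adjusted p = 0.902 and 0.437). Hif1a rose from 21.1 ± 0.250 to 30.6 ± 0.834 TPM (limma adjusted p = 0.00358), and the Krüppel-like factor gene Klf4 rose from 1.21 ± 0.0826 to 2.91 ± 0.140 TPM (limma adjusted p = 0.00857). Klf2, the other gene counted as higher, was at 0.399 and 0.494 TPM in shCtrl and at 9.20 and 9.21 TPM in shSafb, and it was tested only because of its shSafb level. Gata2 stayed under 1 TPM, and Gata4 did not pass (limma adjusted p = 0.113). Junb overlaps Prdx2, and Jund overlaps Gm11175, on the opposite strand. Whether any of these genes bears on Nts or Edn1 was not tested.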

How the data were processed

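RNA from 4 libraries was measured as TPM, 1 deposited value per gene and library, with the group and replicate number taken from the sample titles. Per the labels' protocols, libraries were strand-specific and made from RNA depleted of ribosomal RNA. Per the submitters' processing notes, the tools were HISAT2, StringTie, HTSeq and DESeq2 and the build mm10. Which of them made the TPM, the annotation and the use of strand are not given in the sources used here. The 6 identifiers on several rows were summed, and names, coordinates and overlaps came by identifier from GENCODE mouse release 21 (52045 matched, 147 not). Each library was divided by a median-ratio factor (0.991 to 1.031), and log2(scaled TPM + 1) of the genes with a mean of at least 1 TPM was fitted with limma 3.58.1 in R 4.3.3 (group only, two-sided, variances moderated along an intensity trend, residual degrees of freedom 2, prior 2.61). P-values were adjusted by Benjamini-Hochberg over all 13111 genes. An exact permutation of 2 against 2 libraries cannot go below 0.333 and was not used. DESeq2 was not rerun, since TPM are not counts. The fit was also run on simulated data in which only a small share of genes changed. These data differ in that, so the run gives no error rate for them. Other steps ran in Python 3.11.15 (numpy 2.4.6, pandas 2.3.3, matplotlib 3.10.9).

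The members and lists were chosen with earlier results of these data known. Named were all members, all genes of the neurotensin and endothelin lists, up to 6 called genes with the smallest p of each other list, and the 3 genes nearest to Nts and to Edn1 in pattern. Other genes named (Ramp2, Kdr, Furin, Pcsk1, Pcsk2, Ren1, Agtr1a, Agtr1b, Agtr2, Mas1, Jun, Fos, Gata2, Gata4, Ndrg1, Bnip3, Pgk1, Npr2, Npr3 and marker genes) were chosen after their values were seen. 2 list symbols (Figf, Ca9) had no match. Some genes that these rules name are not reported here, though counts and medians over a list include them. Folds on this log2 scale understate changes of low genes.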

Additional observations from a re-analysis of the deposited data

How the results depend on the processing

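The 12 alternatives changed the pseudocount, scaling, low-TPM filter or variance trend, added a replicate block, or left out 1 library. No called result changed sign; Sort1 ran from -0.01 to 0.08 and Ece2 from -0.11 to 0.25. The log2 changes of Nts and Edn1, which were chosen for their rise, were 3.59 and 3.27 with a pseudocount of 0.1, and 3.30 and 3.05 with 0.5, because a smaller pseudocount shrinks low values less. Leaving out each library in turn, they ran from 2.79 to 3.24 and from 2.68 to 2.99. The number of members called lower was 1 with no intensity trend and 1 to 2 when a library was left out; the cause was not tested. Genes called higher over all genes numbered 1754 to 2151 with a library left out. Of 35 named pathway genes called, 24 were called under all 12 alternatives and 11 were lost under at least 1. The 35 include Calcrl, Flt1, Sstr2 and Klf2, which entered only through shSafb, and Flt1 and Klf2 are among the 24. Nothing is read from the calls of those genes. The median change of all genes moved by less than 0.1 under each scaling.

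Libraries with the same number did not deviate together (correlation of their deviations -0.064), and the labels do not say that a number marks a shared batch. With the replicate block, Nts changed by 3.02 and Edn1 by 2.84, members called were 3 higher and 2 lower, and the calls of Nln and Mme were lost (limma adjusted p = 0.0568 and 0.0637). TPM hold no counts, so precision at Adm's level is unknown.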

Other observations

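Of 16 other peptide hormone genes, 11 were listed at 0 TPM in all 4 libraries and 15 were under 1 TPM in all. The other was Uts2b, the urotensin-related peptide gene, which was at 357 and 378 TPM in shCtrl and 181 and 180.0 TPM in shSafb. It was more abundant than Agt in every library and fell 2.04-fold (log2 -1.0 ± 0.06, SE; limma adjusted p = 9.34e-04), while the gene of its receptor, Uts2r, was at 0. Of 16 other peptide receptor genes, Sstr2 alone was tested, and only because of its shSafb level (0.950 ± 0.0150 TPM in shCtrl and 2.22 ± 0.345 TPM in shSafb). It overlaps Slc39a11, at 42.8 and 40.2 TPM in shCtrl and 17.6 and 15.3 TPM in shSafb, on the opposite strand.

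Corin, the protease that activates natriuretic peptides, fell from 20.0 ± 1.74 to 13 ± 0.123 TPM (limma adjusted p = 0.00572), while Nppa was at 0 in all libraries. Of the other 2 tested genes of that list, Npr2 was at 1.54 and 1.83 TPM in shCtrl and 0.637 and 0.942 TPM in shSafb (limma adjusted p = 0.0508) and Npr3 did not pass (limma adjusted p = 0.264). Cpn1, the subunit of plasma carboxypeptidase N that inactivates kinins, fell from 28.7 ± 0.260 to 15.4 ± 1.81 TPM (limma adjusted p = 0.00388) and was the single tested gene of 9 in the kallikrein-kinin list. Ddah1, which breaks down an inhibitor of nitric oxide synthases, fell from 63.5 ± 0.612 to 47.1 ± 0.403 TPM (limma adjusted p = 0.00443), with Nos1 and Nos2 at 0.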
